A study of Mus musculus with 20 samples.

Results

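The maturation of promyelocytes was followed here as a change of DNA methylation that both genotypes of the study share. All 10 libraries of CD34- cells were set against all 10 libraries of CD34+ cells, with genotype as a second factor, so that 1 additive effect of the fraction was fitted at each place in the genome. These 20 libraries are the whole series. They come from the FVB/n mouse background and fall into 4 groups of 5: CD34- (late) promyelocytes with PML-RARa, CD34- promyelocytes of wild type (WT), CD34+ (early) promyelocytes with PML-RARa, and CD34+ promyelocytes of WT. PML-RARa is the fusion of the genes for a nuclear body protein and a retinoic acid receptor that drives acute promyelocytic leukaemia. The labels used here give neither the promoter of the transgene nor the age of the mice. They do not say whether libraries came from separate mice, so the p-values measure the spread between these libraries. The surface protein used for the sort has no readout in methylation data, and the window at the start of Cd34 was unmethylated in both fractions, at 0.208% ± 0.122 in CD34- libraries and 0.234% ± 0.246 in CD34+ libraries (SD, n = 10 each).

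Promyelocytes are committed granulocyte precursors that make primary granules, and CD34 is a surface glycoprotein of stem and progenitor cells that is lost as they mature. Methylation of CpGs is copied at each round of DNA replication by Dnmt1, which Uhrf1 brings to hemimethylated sites. It is lost by failure of this copying over cell divisions or by oxidation through the Tet enzymes. In mammalian cells, CpG-dense promoters are mostly unmethylated, the CpG-sparse rest of the genome is mostly methylated, and distal regulatory elements often have intermediate levels.

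The assay, ERRBS (enhanced reduced representation bisulfite sequencing), samples restriction fragments from CpG-rich DNA. Bisulfite turns unmethylated cytosines into T and leaves methylated ones as C. Cytosines of CpGs on the autosomes were kept with 10 or more reads in at least 4 of the 5 libraries of every group, and read counts were added up in mm9 windows of 1000 bp that hold at least 3 of them. The level of a window is the share of methylated reads in percent, and differences are in percentage points, CD34- minus CD34+. There were 127276 windows, with a median of 5 cytosines and of 518 reads per window and library. A level is an average over all cells of a library, so a change within cells and a change in the mixture of cells cannot be told apart.

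The starts of 10 genes lay in or beside windows that differed between the fractions, and 5 of these promoters are shown because their single CpGs are described later. In 4 of them the means of printed CpGs differ between the fractions, though single CpGs were not tested and those of Cd27 lie beside its called window. In Uhrf1 the printed CpGs are near 0% in both fractions and the difference lies upstream. They belong to Uhrf1, the partner of Dnmt1, Abca13, a large ABC transporter, Tbc1d22a, which has a domain of Rab GTPase-activating proteins, Angptl8, a secreted regulator of lipoprotein lipase, and Cd27, a receptor of the TNF receptor family. The sequences are those of RefSeq on GRCm38.p6, from 250 bases before to 50 bases after the start, 5′ to 3′ on the strand of the gene. Capitals mark the CpGs that had 10 or more reads in at least 8 libraries of each fraction. Their places on mm9 were found by matching the spacing of CpGs, over 4 to 9 CpGs each: chr17:56442510-56442809 (plus strand) for Uhrf1, chr11:9091695-9091994 (plus) for Abca13, chr15:86107855-86108154 (plus) for Tbc1d22a, chr9:21639704-21640003 (plus) for Angptl8 and chr6:125186996-125187295 (minus) for Cd27.
Uhrf1: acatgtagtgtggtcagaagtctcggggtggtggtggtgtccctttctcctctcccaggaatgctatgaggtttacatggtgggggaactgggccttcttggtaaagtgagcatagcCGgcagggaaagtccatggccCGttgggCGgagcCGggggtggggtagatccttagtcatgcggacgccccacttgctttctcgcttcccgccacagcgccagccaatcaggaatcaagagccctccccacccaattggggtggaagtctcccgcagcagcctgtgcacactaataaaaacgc
Abca13: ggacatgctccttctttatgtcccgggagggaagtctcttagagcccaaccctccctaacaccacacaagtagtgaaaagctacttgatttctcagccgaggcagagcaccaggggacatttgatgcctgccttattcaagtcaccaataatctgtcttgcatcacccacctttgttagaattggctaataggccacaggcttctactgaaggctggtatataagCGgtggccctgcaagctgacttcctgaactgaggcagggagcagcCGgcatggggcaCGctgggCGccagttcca
Tbc1d22a: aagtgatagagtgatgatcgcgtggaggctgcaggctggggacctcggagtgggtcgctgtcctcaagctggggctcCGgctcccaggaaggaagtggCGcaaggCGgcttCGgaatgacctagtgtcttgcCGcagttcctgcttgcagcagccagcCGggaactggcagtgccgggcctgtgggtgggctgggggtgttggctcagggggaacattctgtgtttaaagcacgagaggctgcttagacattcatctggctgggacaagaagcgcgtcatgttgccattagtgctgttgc
Angptl8: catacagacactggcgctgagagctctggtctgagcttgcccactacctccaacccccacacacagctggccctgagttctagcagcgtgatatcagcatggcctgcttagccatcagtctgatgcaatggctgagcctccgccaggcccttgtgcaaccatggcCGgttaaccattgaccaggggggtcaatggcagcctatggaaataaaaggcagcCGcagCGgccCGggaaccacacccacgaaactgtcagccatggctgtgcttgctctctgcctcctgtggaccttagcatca
Cd27: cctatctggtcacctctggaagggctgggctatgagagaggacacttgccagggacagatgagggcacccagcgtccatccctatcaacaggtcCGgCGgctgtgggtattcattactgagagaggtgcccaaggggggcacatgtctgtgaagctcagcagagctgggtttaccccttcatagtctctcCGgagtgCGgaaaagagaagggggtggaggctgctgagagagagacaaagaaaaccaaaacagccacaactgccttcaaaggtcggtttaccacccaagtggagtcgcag

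The median coverage of a listed cytosine lay between 48 and 115 reads in CD34- libraries (median 100) and between 32 and 150 reads in CD34+ libraries (median 71.5). Flowcells, lettered A to D here from their labels, were shared unevenly. A held 5 CD34- and 2 CD34+ libraries, B held 3 CD34- and 4 CD34+, D held 2 CD34- and 3 CD34+, and C held 1 CD34+ library. Replicate 11 of the PML-RARa CD34+ group had the lowest coverage (median 32 reads) and the largest scatter around its group (9.48 points, against 3.50 to 8.52 in the other 19). PML-RARa CD34+ replicate 5 (35 reads, 8.11 points) and WT CD34+ replicate 1 (36 reads, 8.52 points) came close to it. At several windows given in the following paragraphs the level of replicate 11 lay among those of CD34- libraries.

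Late promyelocytes were slightly less methylated than early ones. Mean methylation over the 1150978 cytosines read in all libraries was 29.28% at the lowest, 29.41% at the median and 29.66% at the highest among CD34- libraries, against 29.46%, 29.82% and 30.08% among CD34+ libraries. The ranges overlapped in their middle. The means were 29.45% ± 0.142 in CD34- libraries and 29.80% ± 0.202 in CD34+ libraries (SD, n = 10 each), a difference of -0.347 points (exact permutation within genotype, two-sided, p = 0.000504, adjusted p = 0.000750 over 7 values). Averaged over windows in place of cytosines the difference was -0.797 points (unadjusted p = 9.45e-05, exact permutation). With all reads pooled it was -2.40 points and did not pass (28.4% in CD34- and 30.8% in CD34+ libraries, unadjusted p = 0.116, exact permutation). The difference was -0.265 points in PML-RARa libraries and -0.429 points in WT libraries. Not adjusted for genotype, which the fractions share unevenly on each flowcell, it was -0.588 points on flowcell A, -0.345 on B and -0.190 on D. As a mean within genotype and flowcell it was -0.402 points (adjusted p = 0.00389 by exact permutation). Unconverted cytosines, read as methylated on the mitochondrial genome, made up 0.116% ± 0.0417 in CD34- libraries and 0.117% ± 0.0396 in CD34+ libraries.

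In percentage points, the class of intermediate level had the largest difference of the 6 classes. Windows with a mean level of 20 to 80% over all 20 libraries averaged 57.0% ± 0.685 in CD34- libraries and 58.6% ± 0.941 in CD34+ libraries, a difference of -1.57 points (exact permutation, adjusted p = 0.000750). Windows above 80% averaged 91.6% ± 0.272 in CD34- libraries and 92.5% ± 0.348 in CD34+ libraries, a difference of -0.834 points (adjusted p = 0.000441, same exact test). Windows below 20% averaged 2.75% ± 0.113 in CD34- libraries and 2.92% ± 0.123 in CD34+ libraries, a difference of -0.175 points (adjusted p = 0.00283, same exact test). Sorted by CpG density instead, windows of 3 to 9 cytosines differed by -0.977 points (adjusted p = 0.000441) and windows of 10 to 29 by -0.545 points (adjusted p = 0.000750). The densest windows, with 30 or more cytosines, averaged 3.55% ± 0.0887 in CD34- libraries and 3.62% ± 0.104 in CD34+ libraries and did not pass the test (-0.0750 points, adjusted p = 0.107). Leaving out WT CD34- replicate 2 or PML-RARa CD34+ replicate 3 took this last class past the threshold (adjusted p = 0.0357 and 0.0468, exact permutation).

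**Figure D1:**
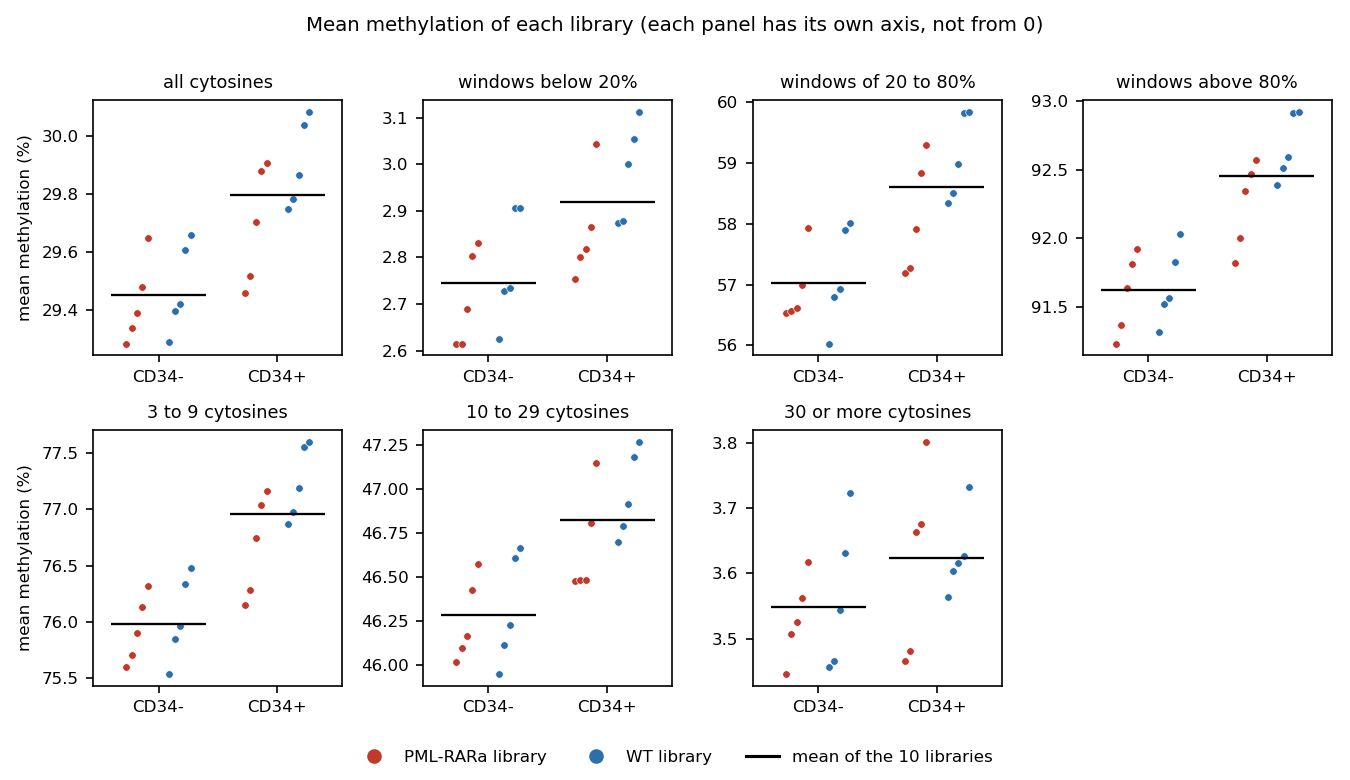
Mean methylation in percent of each library, over all cytosines read in every library and over 6 classes of windows, with CD34- libraries left of CD34+ libraries, colours for the genotype and lines for the mean of 10 libraries. Each panel has its own axis, which does not start at 0; the means of windows of 20 to 80% are 57.0% in CD34- and 58.6% in CD34+ libraries, and those of the densest windows are 3.55% and 3.62%.

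At single windows, losses in late promyelocytes far outnumbered gains. Of the 127276 windows, 774 were called (0.608%), that is, passed the F test at 0.05 after adjustment (moderated quasi-binomial F test, Benjamini-Hochberg over all windows) and differed by 10 points or more. Of these, 677 were lower in CD34- libraries (0.532% of all windows) and 97 were higher (0.0762%). The lower windows had a median level of 38.0% in CD34- libraries and 61.9% in CD34+ libraries, and a median difference of -18.5 points. The higher windows had a median level of 69.5% in CD34- libraries and 45.3% in CD34+ libraries, and a median difference of 17.6 points. Over all windows the median difference was -0.281 points, and 60.9% were lower in CD34- libraries. At the edges of the rule, 49 called windows differed by 10 to 11 points, and 41 windows of adjusted p below 0.05 differed by 9 to 10 points.

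The count moved with the model. With flowcell as a further covariate 510 windows were called, 440 of them lower, and with each library thinned to 100 reads a window 434 were called, 381 of them lower. Without PML-RARa CD34+ replicate 11 the count was 779, 680 of them lower.

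Most calls fell on partly methylated DNA. Windows with a level of 20 to 80% were 17.9% of all windows and 78.9% of the called ones (611 windows). In the bin of 20 to 40%, 3.74% of windows were called lower and 0.361% higher in CD34- libraries. No window below 5% or above 95% was called, and there a difference of 10 points has hardly any room. Of windows with 3 to 9 cytosines 0.716% were called, of those with 10 to 29 0.491%, and of the 12936 with 30 or more 0.0155% (2 windows). In 189 of the lower windows the mean level in CD34- libraries was under 20%, and in 141 the mean level in CD34+ libraries was over 80%.

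**Figure D2:**
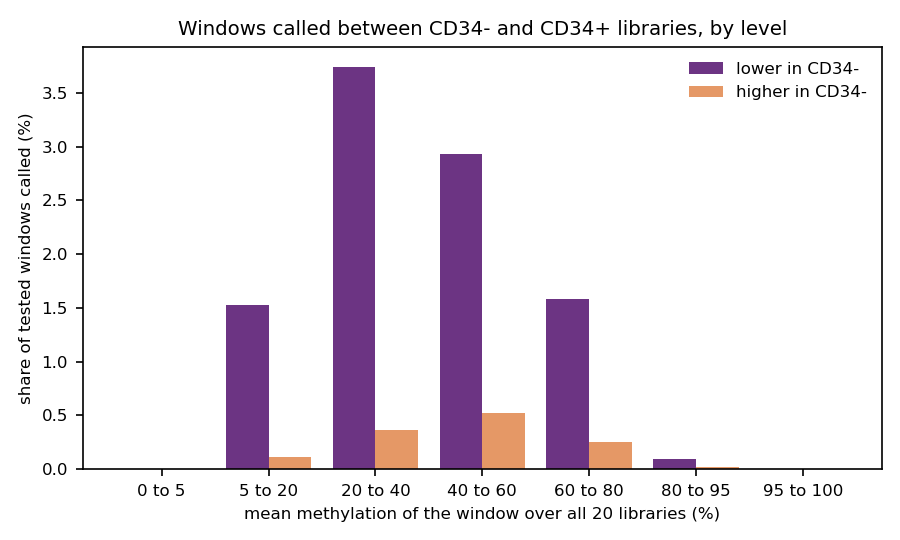
Share of tested windows, in percent, called lower (purple) or higher (orange) in CD34- libraries, by the mean methylation of the window over all 20 libraries. Lower calls reach 3.74% in the bin of 20 to 40%, and both bars are at 0 below 5% and above 95%.

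Both genotypes had the same direction at nearly all called windows. At 149 windows (0.117%) the levels of the 10 CD34- and the 10 CD34+ libraries did not overlap at all, and 130 of these windows were called. The difference had the same sign in both genotypes at 773 of the 774 called windows, a count that the additive model and the 10-point rule favour. The sign was the same at 54.6% of all windows. Among the 2530 windows that differed by 10 points or more, called or not, it was the same at 97.0%. The exception lay inside Anxa4, an annexin, with 0.402 points in PML-RARa and -25.0 points in WT libraries. Among lower windows the PML-RARa libraries had a median of -15.7 points and the WT libraries one of -22.3 points, and at 596 of the 774 called windows the difference was larger in WT, as it was at 56942 of all 127276 windows. Fitted alone, the PML-RARa libraries gave 8 called windows and the WT libraries 521. The interaction of fraction and genotype, which tests that contrast itself, called 0 windows (0% of those tested) with the same F test. An unadjusted p below 0.05 in that test was found at 6570 windows, 5.16% of all. Among the 774 called windows it was found at 122 (15.8%). A difference between the genotypes in the fraction effect was therefore not shown at any single window.

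The largest loss lay at chr9:50701001-50702000, in the spans of Ppp2r1b, a scaffold subunit of protein phosphatase 2A, and of Sik2, a salt-inducible kinase. Its level was 0.0939% at the lowest, 5.86% at the median and 17.8% at the highest in CD34- libraries, against 34.3%, 66.5% and 89.6% in CD34+ libraries. The fractions did not overlap. The difference was -57.5 points (adjusted p = 3.31e-05, quasi-binomial F test), with -46.9 points in PML-RARa and -68.0 points in WT libraries. All 5 CpGs read there, within 183 bases, were lower in CD34- libraries, with differences of -52.6 to -64.0 points.

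At chr9:109764001-109765000, inside the noncoding RNA gene Gm39427 and next to Cdc25a, a phosphatase that activates cyclin-dependent kinases, levels were 0.713% at the lowest, 10.8% at the median and 27.1% at the highest in CD34- libraries, against 30.7%, 58.6% and 100% in CD34+ libraries. The fractions were again apart, by -50.5 points (adjusted p = 2.16e-05, F test). At chr12:82043001-82044000, 2985 bases upstream of the start of the splicing factor gene Srsf5, the same values were 1.95%, 4.37% and 18.1% in CD34- libraries, against 28.4%, 48.3% and 76.3% in CD34+ libraries. No library of either fraction reached the other, and the difference was -44.0 points (adjusted p = 8.26e-06). The 11 cytosines of chr19:18655001-18656000, inside Ostf1, an SH3-domain protein, had 2.08%, 5.65% and 14.5% in CD34- libraries, against 20.4%, 50.4% and 91.6% in CD34+ libraries. All 9 CpGs of that window, within 106 bases, were lower in CD34- libraries.

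The other 6 of the 10 largest losses ranged from -43.0 to -50.7 points. They lay inside Ing5, a reader of histone H3 methylation (-50.3 points), Nup210, a membrane protein of the nuclear pore (-45.0), Pik3c2b, a class II phosphoinositide 3-kinase (-44.5), and Rin3, an exchange factor for Rab5 (-43.0), between the starts of Urb2 and Pgbd5 (-48.8), and at chr18:65071001-65072000 (-50.7). The fractions overlapped in the Ing5 and Nup210 windows. In both, PML-RARa CD34+ replicate 11 was low, at 8.33% in Ing5 and 3.62% in Nup210, and at Nup210 PML-RARa CD34+ replicate 13 lay at 21.9%. The Nup210 call was lost with limma on log2 ratios (adjusted p = 0.0640) and with edgeR (adjusted p = 0.103).

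**Figure D3:**
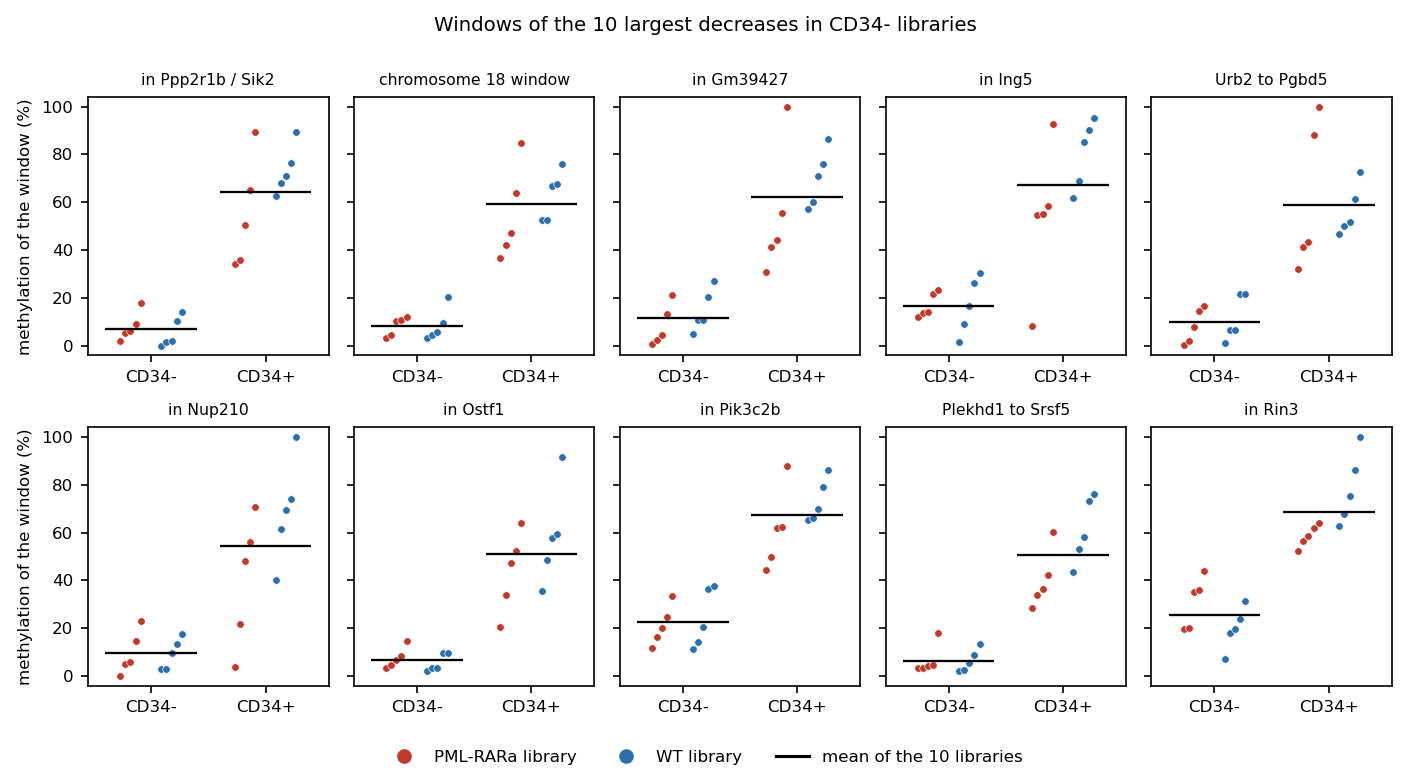
Methylation level in percent of every library in the windows of the 10 largest losses, CD34- libraries left of CD34+ libraries, with colours for the genotype and lines for the mean of 10 libraries. CD34- libraries lie low and close together and CD34+ libraries lie higher and spread more, as in the Ppp2r1b and Sik2 window with medians of 5.86% in CD34- and 66.5% in CD34+ libraries.

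The smallest p of all windows belonged to chr17:56421001-56422000, 5311 bases upstream of Ticam1, the TRIF adaptor of Toll-like receptors, in the interval between the starts of Ticam1 and Uhrf1. Levels there were 0% at the lowest, 0.329% at the median and 4.37% at the highest in CD34- libraries, against 15.4%, 28.2% and 56.2% in CD34+ libraries. The fractions did not overlap, and the difference was -29.9 points (adjusted p = 3.38e-08, F test). Next came a pair of windows that tie in adjusted p. One was chr8:125806001-125807000 inside Fanca, a subunit of the Fanconi anaemia repair complex, with 0.895%, 2.76% and 8.56% in CD34- libraries, against 17.2%, 33.999% and 60.1% in CD34+ libraries. These were apart too, by -33.2 points (adjusted p = 1.15e-07). The other, chr5:76582001-76583000 between the starts of Kdr, a VEGF receptor, and Tmem165, a Golgi membrane protein, had 1.52%, 3.26% and 6.36% in CD34- libraries, against 4.55%, 26.2% and 39.2% in CD34+ libraries. Only PML-RARa CD34+ replicate 11, the lowest at 4.55%, lay within the range of the CD34- libraries. The difference was -22.3 points, and -13.4 points (adjusted p = 0.0350, F test) when only cytosines with 10 reads in all 20 libraries were kept.

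Gains were fewer. The largest, at chr9:116075001-116076000, lay inside Tgfbr2, the type II receptor of TGF-beta, 8980 bases from its start. Its level was 50.9% at the lowest, 66.5% at the median and 80.8% at the highest in CD34- libraries, against 0%, 21.9% and 60.7% in CD34+ libraries. The ranges overlapped through 1 library of each fraction, PML-RARa CD34- replicate 4 and PML-RARa CD34+ replicate 3, and the difference was 42.9 points (adjusted p = 0.000237, F test). This call was lost with limma on log2 ratios (adjusted p = 0.0717) and with edgeR (adjusted p = 0.108).

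At chr8:12931001-12932000 inside Mcf2l, levels were 72.1%, 80.2% and 95.2% in CD34- libraries, against 20.9%, 39.8% and 51.1% in CD34+ libraries (lowest, median, highest). The fractions were apart, by 42.3 points (adjusted p = 7.38e-06, F test). The window chr4:55754001-55755000 lies in an interval between located starts that holds Klf4, a zinc-finger transcription factor. It had 53.7%, 62.1% and 75.3% in CD34- libraries, against 9.36%, 18.3% and 42.7% in CD34+ libraries, and 8 of its 9 CpGs were higher in CD34- libraries. At chr8:83364001-83365000 inside Gab1, a docking protein of growth factor receptors, levels were 85.7%, 88.1% and 98.1% in CD34- libraries, against 47.1%, 58.2% and 74.6% in CD34+ libraries. Neither of these last windows had any overlap, and the Gab1 difference was 29.7 points (adjusted p = 8.78e-06).

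The other 7 of the 10 largest gains ranged from 30.8 to 42.2 points. They included windows inside Stox2 (35.4 points), Racgap1, a GTPase-activating protein of cytokinesis (33.8), Cdk8, a kinase of the Mediator complex (33.4), and Mboat1, a phospholipid acyltransferase (30.8). The Stox2 and Mboat1 windows had no counted reads in PML-RARa CD34+ replicate 11. Over the 28 windows named by size, p or length of stretch, 136 of 138 single CpGs differed in the direction of their window, which the choice of windows favours.

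**Figure D4:**
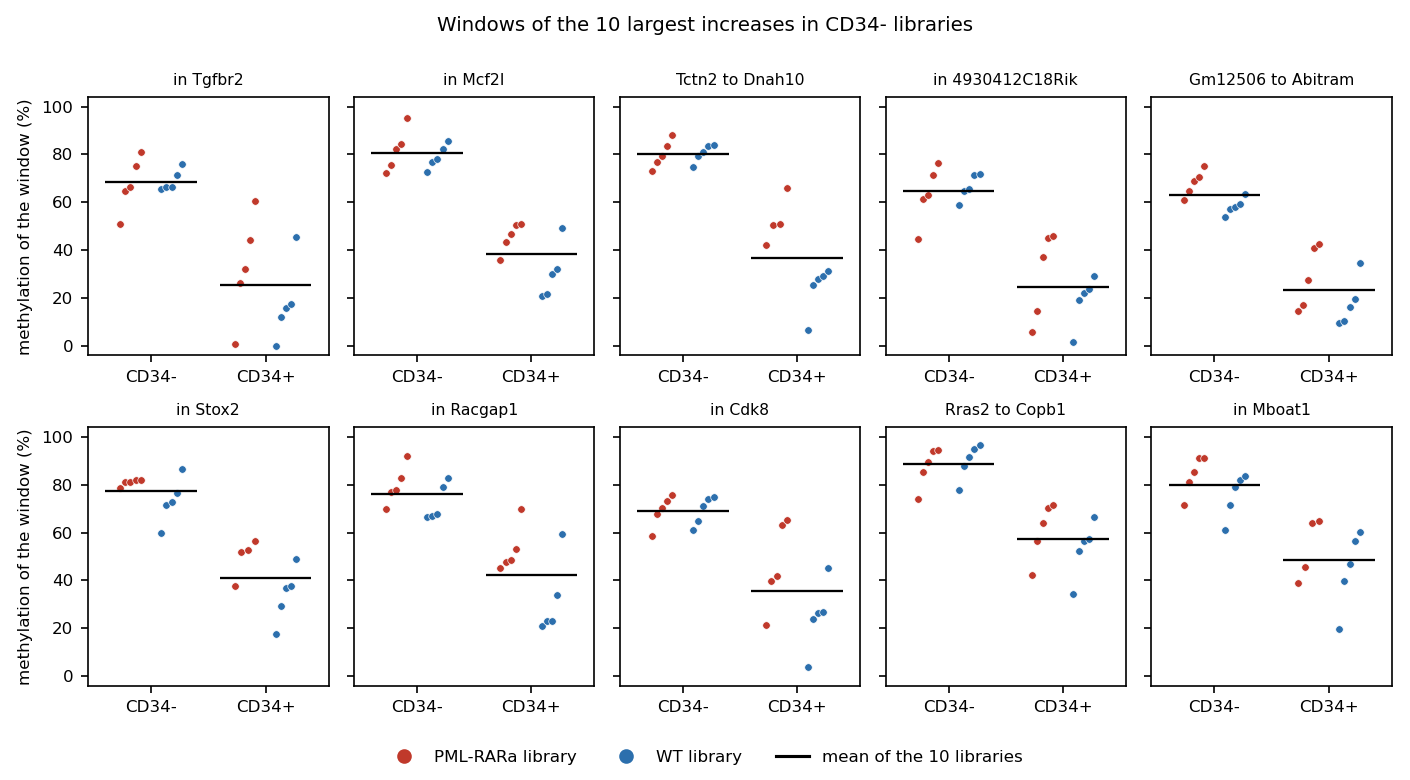
Methylation level in percent of each library with counted reads in the windows of the 10 largest gains, CD34- libraries left of CD34+ libraries, drawn as for the losses. PML-RARa CD34+ replicate 11 had no counted reads in the Mboat1 and Stox2 windows, and replicate 5 of that group had none at chr5:125082001-125083000. The CD34+ line there is the mean of the remaining libraries. CD34- libraries lie high, as in the Mcf2l window with medians of 80.2% in CD34- and 39.8% in CD34+ libraries, and the Tgfbr2 panel shows the overlap of 1 library of each fraction.

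Called windows rarely lay together. Joined where they touched, they made 758 regions, 661 lower and 97 higher in CD34- libraries. There were 26 stretches of like sign with steps of at most 5000 bp, and 1 of them held 3 windows, chr10:60658001-60665000 between the starts of Sgpl1 and Adamts14, with a mean of 42.2% in CD34- and 67.1% in CD34+ libraries. A stretch of 2 windows inside Mtf1, a metal-responsive transcription factor, averaged 51.4% in CD34- and 78.6% in CD34+ libraries.

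Inside the spans of 305 genes lay 323 called windows, and exons and introns were not assigned here. The share of all tested windows inside such spans was not counted, so these counts are not a result about genes. In 21 genes 2 or more windows were called, and in 18 of these all were lower in CD34- libraries. Of all called windows 87.5% were lower, so this direction is not particular to these genes. Foxp1, a forkhead transcription factor, held both directions: neighbouring windows 2209 and 3209 bases before one of its starts differed by -16.83 and -13.98 points, and a window 80486 bases inside the gene by 25.9 points. Brpf3, a scaffold of histone acetyltransferase complexes, had windows of -39.6 and -25.1 points, and Gnptab, which tags lysosomal enzymes with mannose 6-phosphate, had -35.85 and -17.01 points. Mmp25, a membrane-bound metalloproteinase of leukocytes, had -26.2 and -23.1 points. In Neu1, the lysosomal sialidase, the larger difference was -20.9 points, with a mean of 0.189% in CD34- and 21.1% in CD34+ libraries.

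Few calls lay at located gene starts. Chromosome 18 had no located start, so these shares cover the other autosomes, with 123226 windows and 757 calls. Windows within 1000 bp of a located start were 12.3% of these windows and 1.85% of these calls, and 0.0923% of the windows within 1000 bp were called. Of 32851 promoter sequences 12340 were located. Starts matched by fewer than 4 CpGs, or that failed another rule of the match, were not, so windows at such starts count as farther away. These shares therefore describe located starts only. The share called was 0.943% at 1 to 5 kb, 0.889% at 5 to 50 kb and 0.482% farther away. Within 1000 bp, 51.9% of windows held 30 or more cytosines and 5.79% had a level of 20 to 80%, beside 8.75% and 20.3% at 1 to 5 kb. Among windows of 20 to 80% alone, 1.37% were called within 1000 bp and 3.74% at 1 to 5 kb.

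The single CpGs of the printed promoters show how far such changes reached. In Abca13 the 4 CpGs in capitals, from 25 bases before to 39 bases after the start, averaged 0.497%, 1.67%, 5.61% and 12.9% in CD34- libraries, against 23.5%, 38.8%, 53.0% and 61.3% in CD34+ libraries. Its window averaged 12.5% in CD34- and 51.1% in CD34+ libraries, a difference of -38.6 points (adjusted p = 2.11e-05, F test). In Tbc1d22a the 6 CpGs in capitals, all before the start, had means of 0.483 to 22.2% in CD34- libraries and 18.1 to 65.6% in CD34+ libraries, and the window differed by -26.2 points (adjusted p = 0.0373). Angptl8 had means of 1.53 to 3.83% at its 4 CpGs in CD34- libraries and 13.4 to 25.6% in CD34+ libraries, and its window differed by -18.6 points (adjusted p = 0.000231).

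In Uhrf1 the difference lay upstream of the printed promoter. The 4 CpGs in capitals, 133 to 99 bases before the start, averaged at most 1.04% in CD34- libraries and 0.372% in CD34+ libraries. The 9 CpGs from 567 to 428 bases before the start ran over means of 1.11 to 71.4% in CD34- libraries and 11.6 to 89.5% in CD34+ libraries, and each was lower in CD34- libraries, with differences of -10.4 to -33.8 points. The whole window had 15.5% at the lowest, 20.4% at the median and 34.04% at the highest in CD34- libraries, against 10.3%, 35.4% and 56.3% in CD34+ libraries. These ranges overlapped, with a difference of -13.6 points (adjusted p = 0.0172, F test). Cd27 showed a gain: its window averaged 21.0% in CD34- libraries and 8.61% in CD34+ libraries (12.4 points, adjusted p = 0.000120). The CpG with the largest difference, 573 bases inside the gene, averaged 60.5% in CD34- libraries and 27.3% in CD34+ libraries. The 4 CpGs of Cd27 in capitals lie beside the called window, not in it, and were not tested. They had means of 1.32 to 20.0% in CD34- libraries and 0.480 to 4.66% in CD34+ libraries.

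**Figure D5:**
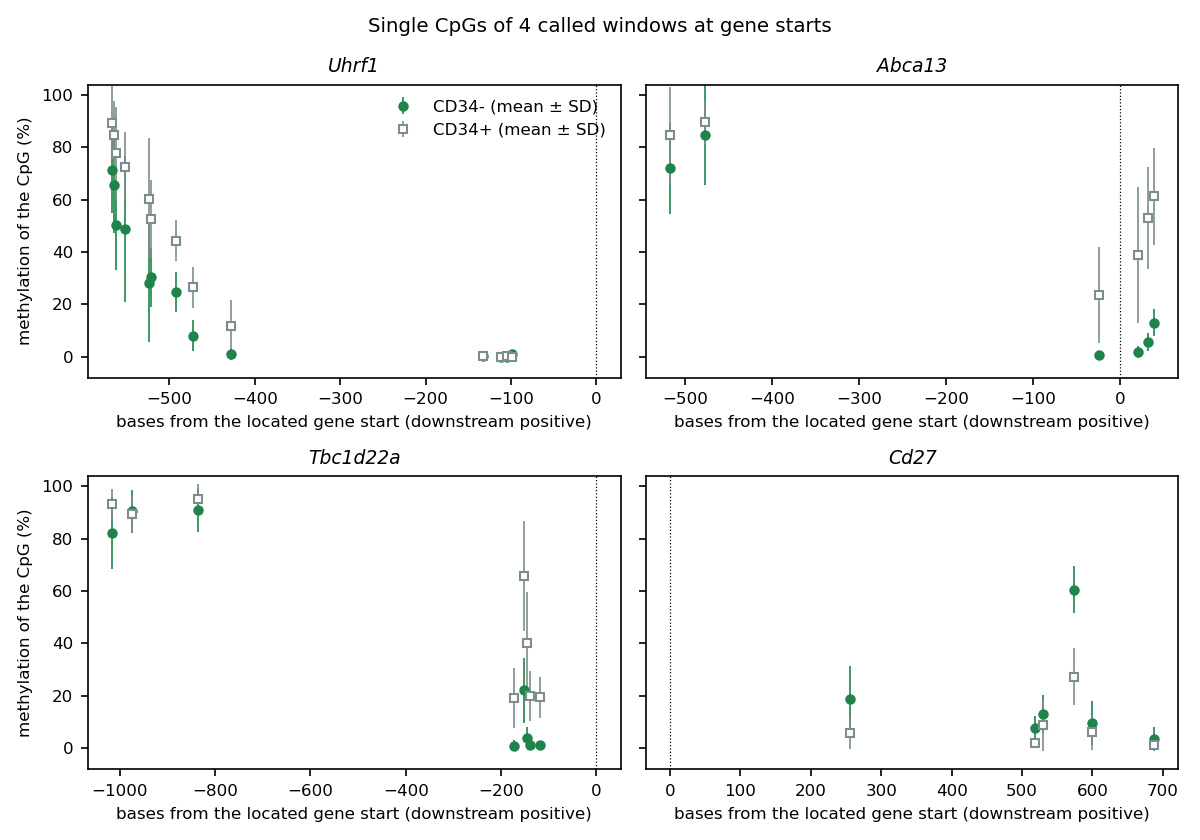
Methylation in percent of single CpGs in the called windows at the starts of Uhrf1, Abca13, Tbc1d22a and Cd27, against the distance in bases from the located start, as mean ± SD over the CD34- and over the CD34+ libraries. In Uhrf1 both fractions lie near 0 close to the start and part upstream, where the 9 CpGs reach 71.4% in CD34- and 89.5% in CD34+ libraries, and in Cd27 the CD34- libraries are the higher ones.

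Genes of the methylation machinery and of the granulocyte lineage were looked up within 5 kb of located starts. With 0.608% of all windows called, lists of this size would hold few calls or none at the same share, so a count of 0 says nothing particular about a list. All 7 methylation enzymes were located, with 24 windows, of which the Uhrf1 window was the 1 called. When the size of the difference was ignored, 0.869% of all windows passed the adjusted F test. Among these was one of Tet3, an enzyme that oxidises methylcytosine, 2171 bases inside the gene. Its level was 60.1% at the lowest, 65.2% at the median and 72.6% at the highest in CD34- libraries, against 65.6%, 77.7% and 83.8% in CD34+ libraries, overlapping, with a difference of -9.34 points (adjusted p = 0.0395, F test). At the starts of the DNA methyltransferase genes Dnmt1, Dnmt3a and Dnmt3b and of Tet1 and Tet2, windows within 1000 bp had means of at most 1.09% in CD34- libraries and 1.02% in CD34+ libraries.

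Of 8 granulocyte transcription factors 4 were located (Cebpa, Cebpb, Gfi1 and Irf8), with 19 windows and no call. Gfi1, a repressor needed for granulocyte differentiation, had a window of 67 cytosines, 2862 bases inside the gene, that fell by less than the 10 points of a call. Its level was 80.2% at the lowest, 84.8% at the median and 86.5% at the highest in CD34- libraries, against 87.4%, 89.6% and 92.3% in CD34+ libraries. The fractions did not overlap, and the difference was -5.38 points (adjusted p = 1.90e-05, F test).

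Of 10 progenitor genes 7 were located, with 37 windows and no call, and a median difference of -0.0358 points. All 6 genes of the retinoid list (Rara, Rarb, Rarg, Rxra, Rxrb and Pml) were located, with 35 windows, no call and a median of -0.118 points, beside -0.281 points over all windows. Of the secondary and tertiary granule genes 1 of 9 was located, Ltf, the gene for lactoferrin, with 4 windows and no call. Pax5 of B cells and Epor of erythroid cells were the located markers of other blood cells, with 5 and 6 windows and no call. None of the 4 primary granule, 5 T cell, 3 monocyte and 3 mast cell genes could be placed by CpG spacing, so these lists gave no windows.

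Farther from starts, windows nearest to 2 of the progenitor genes were called, and these were picked from the called windows after their values were seen. How many windows lie nearest to the 7 located progenitor genes was not counted, and 0.608% of all windows were called. These calls therefore say nothing particular about the list. A window 31711 bases upstream of Myb, a transcription factor of progenitor cells, averaged 61.1% in CD34- libraries and 38.6% in CD34+ libraries (22.5 points, adjusted p = 0.000601, F test). A window 80511 bases upstream of Kit, the receptor of stem cell factor, averaged 13.6% in CD34- libraries and 29.9% in CD34+ libraries (-16.3 points, adjusted p = 0.00954).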

How the data were processed

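DNA methylation was measured by ERRBS in 20 libraries, 5 in each of 4 groups. CASAVA 1.8.2, Bismark and the genome build mm9 are named per the submitters' processing notes, and their settings are not given in the sources used here. Each deposited file lists cytosines with the coverage, a count of reads, and the percent of reads with C and with T, per the file headers. Methylated and unmethylated read counts were rebuilt from coverage and percent, and lists start at 10 reads. Total coverage, which counts a read at each cytosine, was 131888291 to 289157822 in CD34- and 83631324 to 362881291 in CD34+ libraries; PCR duplicates are not marked, so precision rests on the spread between libraries. No pair of replicates agreed within sampling noise.

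Windows (92.6% of 1730534 kept cytosines) were fitted with a quasi-binomial model of fraction and genotype, with overdispersion moderated as in limma 3.58.1 (R 4.3.3), in Python 3.11.15 with numpy 2.4.6 and scipy 1.17.1; the interaction was fitted likewise. Library means were tested by exact permutation (63504 arrangements, smallest p 3.15e-05). edgeR 4.0.16 and limma served as alternatives. Scripts were tested on simulated data. Named windows were the 10 largest losses and gains, the 3 smallest p-values in each direction and the 3 longest stretches.

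No genome or annotation of mm9 was used. Instead, RefSeq promoter sequences were placed on mm9 by the spacing of their CpGs among the listed cytosines. The first search, over whole chromosomes, needed 8 matched CpGs and 70% of those in the sequence. It placed 6207, against 5 for mirrored spacings. The next 2 searches, between placed neighbours, needed 4 CpGs and 25%. They placed 5364 and 790, against 18 and 40 for mirrored spacings. After 21 were dropped for their distance to neighbours, 12340 promoters of 10742 genes were located. The 5 printed promoters came from the searches between neighbours. The gene lists, planned for an annotation, were looked up at these starts, and the planned motif search was not done. "Inside" a gene means within its RefSeq span set at the located start. The comparison, lists and tests were chosen with earlier results of these data known.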

Additional observations from a re-analysis of the deposited data

Results flagged for a closer look

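Over the library means and the 28 named windows, 137 values of groups of 5 libraries were looked at for a library far from the rest of its group. In all 4 were found, each in a named window, and chance gives about 1 in 20. In the window upstream of Srsf5 (chr12:82043001-82044000) PML-RARa CD34- replicate 4 had 18.1%, and the others of its group 3.17 to 4.62%. At chr5:125082001-125083000, between Tctn2 and Dnah10, WT CD34+ replicate 1 had 6.67%, and the others 25.4 to 31.2%. At chr18:36651001-36652000 PML-RARa CD34+ replicate 11 had 90.1%, within the range of the CD34- libraries, and the others of its group 77.8 to 79.2%. In the Stox2 window (chr8:48277001-48278000) PML-RARa CD34- replicate 20 had 78.7%, and the others 81.1 to 82.0%.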

How the results depend on the processing

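No result reversed under any alternative. In the main fit 774 of 127276 windows were called. Among only the windows with at least 6 cytosines 310 were called, and tested singly, 1776 of the 1730534 kept cytosines. These counts rest on other numbers tested than the 774. On the same 127276 windows the count became 344 with limma on log2 ratios, 297 with edgeR and 510 with flowcell as a covariate (492 shared with the 774). It became 434 with each library thinned to 100 reads (404 shared), 330 at 20 points or more and 482 at an adjusted p below 0.01. In PML-RARa libraries alone it was 8 (100% lower), and in WT libraries alone 521. Without the 5 libraries of high scatter (replicates 1, 5, 6, 11 and 12) 743 were called, 589 of them shared. Leaving out 1 library gave 607 (without WT CD34+ replicate 9) to 793 windows, 86.2 to 88.1% of them lower. The interaction, refitted without 1 library, without the 5 libraries and with flowcell, called 0 windows in each. In that order, 5819 to 8051, 7069 and 6038 of the 127276 windows had an unadjusted p below 0.05, beside 6570 in the main fit.

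Leaving out 1 library moved the mean difference between -0.377 and -0.320 points, windows below 20% between -0.191 and -0.152, 20 to 80% between -1.70 and -1.42, above 80% between -0.886 and -0.788, 3 to 9 cytosines between -1.04 and -0.915, 10 to 29 between -0.589 and -0.486, and 30 or more between -0.0950 and -0.0520. Flowcell A alone, not adjusted for genotype, gave -0.588 points for the mean, and -0.338, -2.72, -1.30, -1.59 and -0.903 for the first 5 classes in that order. Flowcell D alone, likewise not adjusted, gave -0.785 for 20 to 80%, -0.471 above 80% and -0.517 for 3 to 9 cytosines. With all reads pooled, the mean difference was -2.40 points and did not pass (exact permutation, unadjusted p = 0.116). The cause of these shifts was not tested.

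The numbers of neighbouring titles were not shown to pair libraries: 3 of 10 such pairs had a correlation of deviations over 0.1 (median 0.071), beside 3 of 40 other pairs (median -0.023). The highest 3 values were of neighbouring titles, but not every library correlated best with its neighbour, so pairing was neither shown nor excluded. With them as a replicate block 692 windows were called, 611 lower and 607 shared. All 28 named windows stayed called there and with flowcell. In limma on log2 ratios and in edgeR, the Nup210, Tgfbr2 and chr5:124476001-124477000 windows were lost (adjusted p 0.0640 to 0.108), and the last also with thinning (0.0910) and without the 5 libraries (0.0502). With 10 reads required in all 20 libraries, 15 of the 28 windows could be tested, and these stayed called; the Kdr and Tmem165 window moved to -13.4 points.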

Other observations

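Reads on the mitochondrial genome, which lie outside the windows, differed between the fractions. Over 13 mitochondrial cytosines listed in all 20 libraries, coverage scaled to the total of the library was 157 RPM at the lowest, 210 at the median and 293 at the highest in CD34- libraries, against 288, 379 and 529 in CD34+ libraries. The means were 217 ± 46.4 RPM in CD34- libraries and 379 ± 81.8 RPM in CD34+ libraries (SD, n = 10 each; exact permutation within genotype, two-sided, p = 6.3e-05, adjusted p = 9.45e-05 over 3 values). The same means were 180 in CD34- and 337 in CD34+ libraries on flowcell A, 246 and 457 on B, and 268 and 321 on D. By genotype they were 199 in CD34- and 384 in CD34+ libraries of PML-RARa, and 235 in CD34- and 374 in CD34+ libraries of WT.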
